A study of Mus musculus with 16 samples.

Results

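Mouse embryonic stem (ES) cells hold their undifferentiated state through a set of genes that are active in the naive epiblast and fall silent as cells are primed for differentiation. Outside the Klf family, 10 genes of this set or of the LIF pathway were examined here. Esrrb, Nr5a2, Nr0b1, Tbx3, Zfp42 and Gbx2 encode transcription factors. Dppa3 encodes a chromatin factor, Tcl1 an Akt coactivator, and Stat3 and Socs3 belong to the LIF pathway. All 10 were chosen by name, and every array probe annotated to them was read. This gave 12 probes for 10 genes out of 24606 probes and 15967 genes. Stat3 and Nr5a2 had a pair of probes each, and the other genes had one; a gene with more than one is described by its brighter probe.

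The arrays were Illumina beadchips, on which a probe's brightness (intensity) measures its transcript. All 16 arrays came from E14TG2a, a mouse ES cell line that lacks HPRT, grown in serum with LIF. Every culture was first held for 6 h in LIF-free knockout serum replacement (KSR) medium with 10 μM SB-431542 (SB), which blocks the receptor kinases used by Nodal and Activin, and then kept for 18 h in the same base medium. In those 18 h the cells received 25 ng/ml Activin (high signalling), 10 μM SB (low signalling), the vehicle DMSO at 1 in 5000, or nothing (KSR); the last pair of groups has only the signalling that the cells make themselves. By the methods of the study, SB was dissolved in DMSO that was diluted 5000-fold in the cultures, and no DMSO is named for Activin. Comparisons of Activin with SB or DMSO may thus also differ in vehicle. Each group held 4 cultures, at passages 20, 21, 23 and 24, so each passage number held 1 culture of every group. A passage therefore cannot be told apart from anything else that its cultures shared, and no array held cells kept in LIF, so a response to LIF itself could not be measured.

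LIF, an interleukin 6 family cytokine, binds a receptor made of Lifr and Il6st, whose Jak kinases phosphorylate Stat3. Phosphorylated Stat3 enters the nucleus and switches on naive genes, among them Gbx2 and Klf4, and also Socs3, whose product binds the receptor and damps the signal. Nodal and Activin act through a separate receptor pair and the Smad2 and Smad3 proteins.

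Before the members, the treatments were checked on Nodal target genes: Lefty1, which encodes a Nodal antagonist, rose by 1.29 on the log2 scale with Activin over DMSO and fell by 5.09 with SB. Of 8 measured targets, 2 rose and 0 fell with Activin over DMSO (adjusted p under 0.05, limma, 0.0203% of all probes). With SB over DMSO 0 rose and 5 fell (0.309% of all probes). The median changes of the 8 were 0.24 with Activin and -0.49 with SB, and 3 were above background on 0 arrays. ES cell markers were present (7 of 7 measured genes above background). Mean intensity per array ran from 486 to 760, the dimmest array being KSR at passage 21, and 9816 to 10482 probes per array were above background, the level under which 95% of 1191 smell and taste receptor probes lay on that array. Markers of primitive endoderm moved with passage: of 6 above background on 4 or more arrays, 5 were higher and 1 was lower at passages 23 and 24 than at 20 and 21, and the summed intensity of all 10 listed was 672 to 987 on the earlier arrays and 2363 to 3362 on the later ones.

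The genes were clearly expressed with 1 exception. For 9 of 10, the brighter probe was above background on all 16 arrays. Nr0b1, which encodes Dax1, a nuclear receptor relative without a DNA-binding domain, was above background on 0 arrays, with intensities from -4.1 to 35.7 against array limits of 52.9 to 68.1, and no direction is given for it. The second Nr5a2 probe was also above background on 0 arrays (14 to 37.6). Values below are given on the log2 scale after background correction and quantile normalisation unless they are called intensities. Probes are not compared with each other for level. The correction adds an offset of 50, which makes changes of dim probes smaller on this scale.

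**Figure D1:**
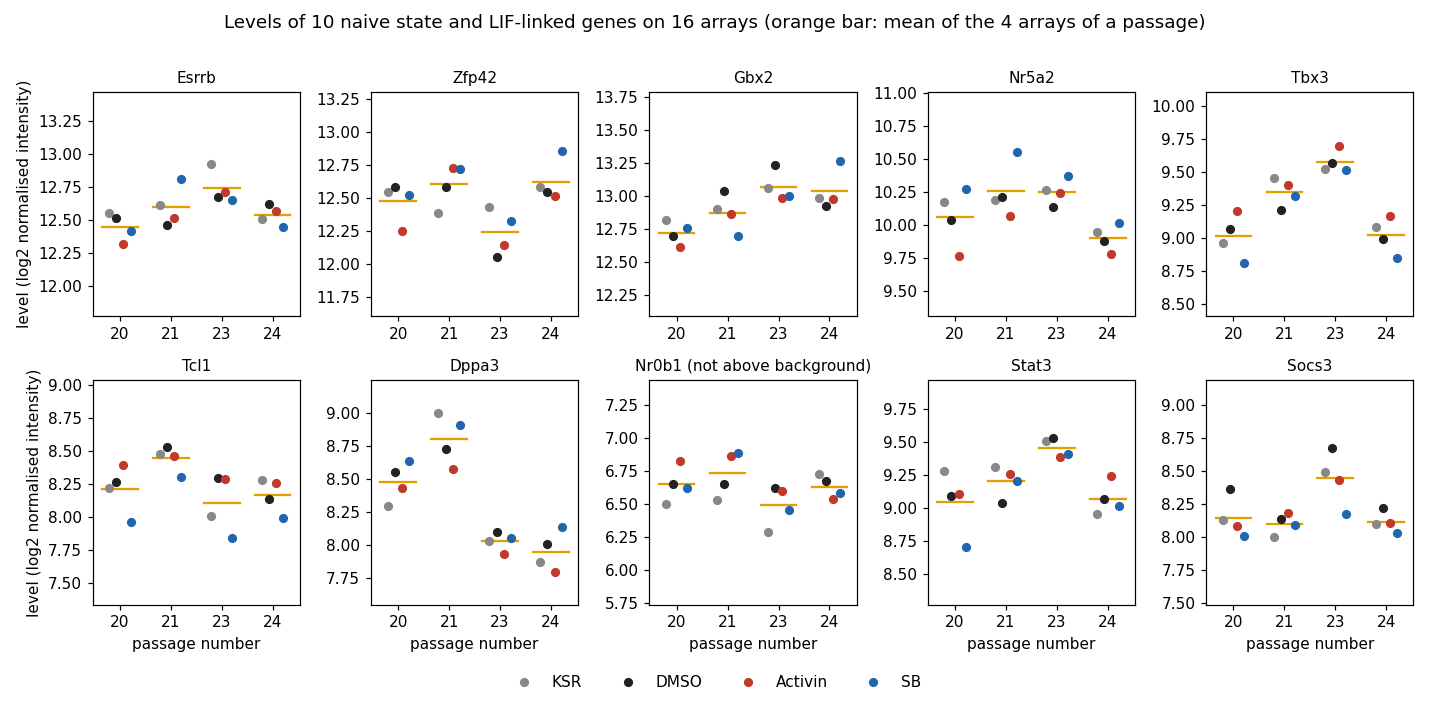
Level of each gene (y axis, log2 normalised intensity, a span of equal height in every panel) by passage number (x axis) on the 16 arrays; points are single cultures coloured by treatment and orange bars are means over the 4 arrays of a passage. Tbx3 and Stat3 peaked at passage 23 and Dppa3 was higher at passages 20 and 21, and the SB point was the lowest of its passage for Tcl1 and the highest for Nr5a2 at all 4 passages.

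The first question was whether high, endogenous or low Nodal/Activin signalling altered these genes. None of the 10 passed the threshold (adjusted p of 0.05, limma, Benjamini-Hochberg over all 24606 probes) in any of 4 comparisons, and for 0 of 10 genes did the 4 arrays of one treatment lie apart from the 4 of the other. Over all probes such a separation was seen in 2.37% for Activin minus DMSO, 3.56% for SB minus DMSO, 1.96% for DMSO minus KSR and 4.58% for Activin minus SB. With Activin against DMSO, 0 of 10 passed and 0.0203% of all probes did, and no member had an unadjusted p under 0.05, as 3.58% of all probes had. The 10 changes ran from -0.17 for Dppa3 to 0.16 for Tbx3, with a median of -0.04. The 95% interval stayed within 1.5-fold for 9 of 10 genes, the exception being Dppa3 (-0.62 to 0.29). Nr0b1 is counted among the 9 but was above background on 0 arrays, so its interval tells nothing of its transcript. With SB against DMSO, 0 of 10 passed against 0.309% of all probes, and 2 had an unadjusted p under 0.05 (5.74% of all probes). All 10 intervals, that of Nr0b1 included, stayed within 1.5-fold. Intervals were computed for the main processing alone, so the counts within 1.5-fold hold for that processing only. Among the 22 alternatives the change with SB reached -0.42 for Tcl1 and -0.39 for Socs3. The vehicle against medium alone gave 0 of 10 and 0% of all probes, with no member at an unadjusted p under 0.05 (3.27% of all probes) and changes from -0.08 to 0.17. Activin against SB, the ends of the gradient, gave 0 of 10 against 0.898% of all probes, and 2 members had an unadjusted p under 0.05 (7.7% of all probes). The comparisons share arrays (DMSO in the first 3, Activin and SB in the last), so they are not independent of each other.

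**Figure D2:**
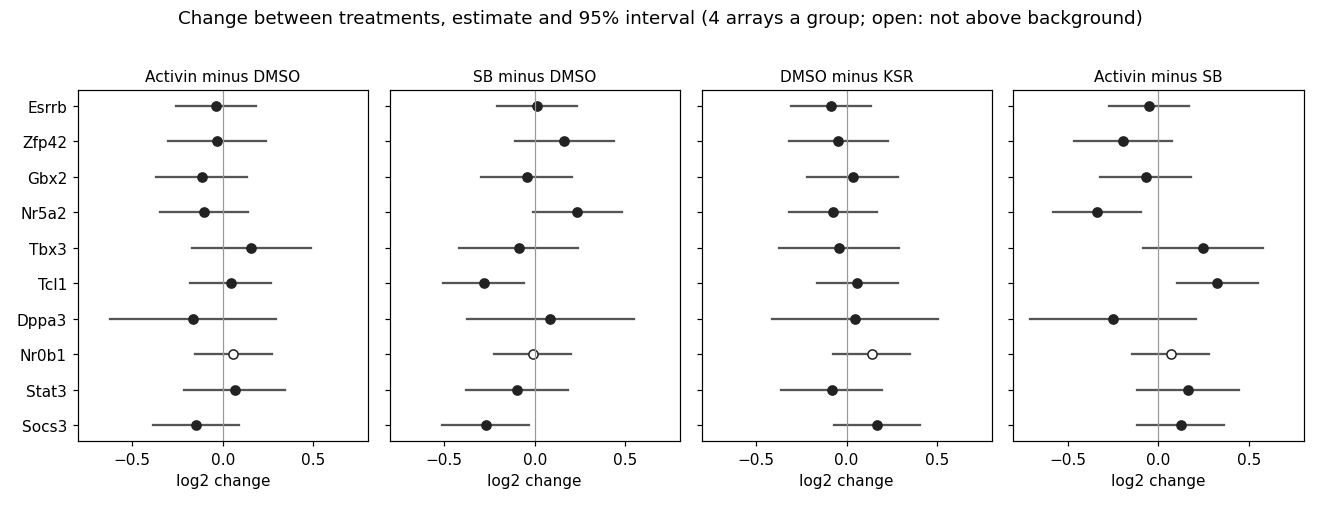
Log2 change (x axis) of the 10 genes in the 4 comparisons of treatments; points are estimates from 4 arrays a group, bars are 95% intervals, and the open point is Nr0b1, which was not above background. The intervals that did not reach 0 were those of Nr5a2 and Tcl1 between Activin and SB and of Tcl1 and Socs3 between SB and DMSO, and no change passed the threshold after adjustment.

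Since each passage number held 1 culture of every treatment, the comparisons were also made with passage as a block, which takes out level differences shared by a passage. Between Activin and SB, 2 of 10 genes then passed, Nr5a2 and Tcl1, while 1.78% of all probes did. In the other comparisons with the block, 0 of 10 passed, against 0.0366% of all probes for Activin minus DMSO, 0.61% for SB minus DMSO and 0% for DMSO minus KSR. Markers of other cells moved with SB: of 7 trophectoderm markers above background on 4 or more arrays, Gata3 (0.55) and Tfap2c (0.61) rose with SB over DMSO and 0 fell, while Elf5, Hand1 and Ascl2 were above background on 0 arrays. The summed intensity of the 10 was 3907 to 4417 with SB, 2935 to 3241 with DMSO, 2188 to 3080 with Activin and 2458 to 3457 in KSR. Of 7 ES cell markers 1, Tdgf1, fell, and it is also on the list of Nodal target genes. Their sum was 17028 to 21243 with SB and 20039 to 24427 with DMSO. It was 20232 to 26963 with Activin and 16080 to 27607 in KSR, a range that holds that of SB. The part of these markers in the values of the members was not tested.

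Nr5a2 (Lrh-1), an orphan nuclear receptor that binds the Pou5f1 promoter, was lower with Activin than with SB at 4 of 4 passages. Its intensities at passages 20, 21, 23 and 24 were 709, 1056, 1254 and 901 with Activin and 1079, 1240, 1284 and 1039 with SB. In DMSO they were 969, 1049, 1058 and 911, and in KSR 1090, 806, 1228 and 1034. In normalised level the SB array was the highest at each of the 4 passages, and the ranges of the treatments overlapped. The mean levels were 9.97 ± 0.23 with Activin and 10.31 ± 0.22 with SB (SD, n = 4), a change of -0.34 (95% interval -0.58 to -0.10), or 1.27-fold. The adjusted p was 0.308 without the block and 0.0259 with it (limma), and the differences at the 4 passages were -0.51, -0.48, -0.13 and -0.24. Against DMSO, Nr5a2 was at 0.24 with SB, higher at 4 of 4 passages (95% interval -0.01 to 0.48, adjusted p = 0.891, and 0.309 with the block, limma).

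Tcl1, whose product binds Akt and raises its kinase activity, went the other way. Its intensities at passages 20, 21, 23 and 24 were 227, 287, 249 and 256 with Activin and 156, 207, 152 and 192 with SB. In DMSO they were 218, 271, 235 and 211, and in KSR 218, 206, 185 and 259. The SB array was the lowest in normalised level at each of the 4 passages, as drawn in the plot of levels by passage. The mean levels were 8.35 ± 0.09 with Activin and 8.02 ± 0.20 with SB (SD, n = 4), a change of 0.32 (95% interval 0.10 to 0.55), or 1.25-fold. Among 22 alternatives without the block as the main fit, this change ran from 0.26 to 0.49. Mean intensity was 255 with Activin and 177 with SB. The adjusted p was 0.272 without the block and 0.0303 with it (limma). Against DMSO, Tcl1 was at -0.28 with SB (unadjusted p = 0.0162 and adjusted p = 0.678 by limma, adjusted p = 0.138 with the block).

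Both block calls were fragile: each held in 8 of 21 alternatives and kept its sign in all 21. With the block and the values normalised by the authors the adjusted p was 0.0998 for Nr5a2 and 0.0731 for Tcl1 (limma). Leaving out a single array ended the Nr5a2 call for Activin replicates 1, 2 and 4 and SB replicates 1 and 2 (adjusted p 0.0596 to 0.156). It ended the Tcl1 call for Activin replicates 1, 3 and 4 and SB replicates 1, 3 and 4 (adjusted p 0.0611 to 0.14).

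Relatives of these genes gave context for both. Of 9 measured nuclear receptor relatives, 1 rose with SB over DMSO, Nr6a1 (germ cell nuclear factor, a repressor of Pou5f1 in differentiating cells), by 0.52 (adjusted p = 0.0129). The 7 measured Tcl1 family and Akt genes had no call in any comparison, and 6 of them were above background on 0 arrays. Of 15 other naive state genes, 1 rose with SB, Klf2 (0.49, adjusted p = 0.0311), and 1 fell, Tdgf1, the Nodal co-receptor (by 0.99, adjusted p = 0.00122). Tfcp2l1, a naive transcription factor downstream of LIF, stood at -0.37 between Activin and SB (adjusted p = 0.256, and 0.0153 with the block).

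The second question was whether the genes kept their level from passage to passage. A test of any difference between the 4 passages, with treatment in the model, passed for 8 of 10 genes, while 7.18% of all probes passed. All members but Esrrb (adjusted p = 0.137) and Nr0b1 (0.283) were among them. Their adjusted p ran from 3.83e-06 for Dppa3 and 1.57e-04 for Tbx3 to 0.0493 for Gbx2 (limma F test). The probes of all genes include many at background, here and in the shares given for contrasts of passages below. Among 7773 genes above background on 4 or more arrays, 15.1% passed, against 8 of the 9 members above background. The error in this test and the contrasts of passages below is the spread between treatments within a passage, since no treatment was repeated there. Tbx3 and Dppa3 passed in all 17 alternatives, and the other 6 in 5 (Tcl1) to 11 (Socs3) of them. With the values normalised by the authors 3 of 10 passed (Tbx3, Dppa3 and Socs3), and 3 of 10 without passage 23 and 2 of 10 without passage 24.

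The sum of squares of each gene's level over the 16 arrays was then divided between passages, treatments and the rest. It lay between passages for 34.3% (Nr0b1) to 88.2% (Dppa3), and between treatments for 5.69% (Gbx2) to 42.7% (Tcl1). The passage share was the larger for 9 of 9 members above background, with medians of 58.0% for passage and 11.5% for treatment. Over the 7773 genes above background the medians were 37.3% and 15.2%, and the passage share was larger in 72.9% of them. Tcl1 was the closest case, with 44.0% between passages and 42.7% between treatments. Its passage means were 8.21, 8.44, 8.11 and 8.17 at passages 20, 21, 23 and 24, highest at passage 21, and none of the 3 contrasts of passages passed for it.

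**Figure D3:**
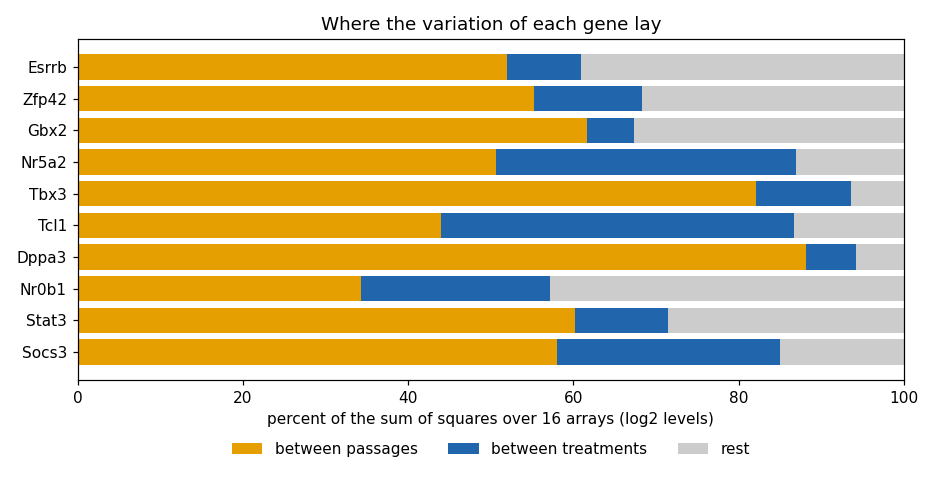
Share of the sum of squares of each gene's log2 level over 16 arrays (x axis, percent) that lay between the 4 passages, between the 4 treatments and in the rest. Dppa3 (88.2%) and Tbx3 (82.1%) had the largest passage shares, and Tcl1 and Nr5a2 had the largest treatment shares (42.7% and 36.2%).

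Dppa3 (Stella), a maternal factor that shields DNA methylation in the early embryo and germ line, had the largest difference between passages. Its intensities in KSR, DMSO, Activin and SB were 235, 286, 235 and 294 at passage 20 and 322, 326, 320 and 352 at passage 21. They were 191, 195, 175 and 192 at passage 23 and 169, 186, 158 and 220 at passage 24. All 8 earlier arrays were above all 8 later ones, a separation seen in 0.573% of all probes. The later passages lay 0.65 ± 0.06 (SE) below the earlier ones, 1.57-fold, with an adjusted p of 7.93e-07 (limma, 3.79% of all probes passed). This call held in all 13 alternatives, with changes from -0.88 to -0.49, but none of them left out a passage. Its error was the spread within passages, and passage 21 itself lay 0.32 above passage 20. At each of the 4 passages the Activin culture was lower than the DMSO culture, by 0.13 to 0.21, without passing the test.

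The rise of primitive endoderm markers given above lay along the same split of passages. Dab2 (2.27), Gata6 (1.21) and Col4a1 (0.93) had the largest changes of that list between the later and the earlier passages, while Gata4, which marks the same lineage, was lower by 0.30. Sox17 and Sox7, which define the lineage, and Foxa2 and Lama1 were above background on 0 arrays, and no direction is given for them. The part of such cells in the values of Dppa3, or of any other gene that differed between these passages, was not tested, and fewer cells expressing Dppa3 cannot be told apart from less Dppa3 RNA in each cell.

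Gbx2, a homeobox gene that acts downstream of Stat3 in mouse ES cells, went the other way. Its intensities in KSR, DMSO, Activin and SB were 7157, 6618, 5791 and 6278 at passage 20 and 5577, 7857, 7527 and 5691 at passage 21. They were 9068, 9813, 9072 and 8373 at passage 23 and 9488, 8326, 9014 and 10287 at passage 24. For Gbx2 the 8 later arrays were all brighter than the 8 earlier ones before normalisation, while the mean over all probes was 667 to 760 on the later and 486 to 669 on the earlier arrays. In normalised level the passages overlapped. The later passages were higher by 0.25 ± 0.06 (SE), 1.19-fold, with an adjusted p of 0.0294 (limma), and 2 of 10 members passed this contrast, against 3.79% of all probes. The call held in 6 of 13 alternatives and was lost when any 1 of the 4 treatments was left out (adjusted p 0.0686 to 0.129).

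Tbx3, a T-box factor that supports self-renewal, peaked at passage 23. Its intensities in KSR, DMSO, Activin and SB were 418, 451, 452 and 341 at passage 20 and 463, 488, 629 and 496 at passage 21. They were 690, 688, 816 and 682 at passage 23 and 528, 460, 561 and 423 at passage 24. The 4 arrays of passage 23 were above all other 12, which 0.435% of all probes showed. That share counts passage 23 and the upward direction alone, not any passage standing apart. Between passages 23 and 24 the level fell by 0.55 ± 0.08 (SE), 1.46-fold, with an adjusted p of 6.84e-04 (limma, 2.85% of all probes passed), and this held in all 13 alternatives. From passage 20 to 21 it was higher by 0.33 ± 0.08 (SE), the 1 of 10 members that passed there (adjusted p = 0.0401, 0.882% of all probes). That second call held in 3 of 13 alternatives and was lost without KSR replicate 2, the dimmest array (adjusted p = 0.1). Tbx3 was higher with Activin than with DMSO at each of the 4 passages, by 0.13 to 0.19, without passing the test.

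Esrrb, an orphan nuclear receptor that can stand in for LIF when overexpressed in mouse ES cells, was bright on every array. Its intensities ran from 4501 to 8278 with a median of 5993. The passage means lay within 1.22-fold of each other, from 12.45 at passage 20 to 12.74 at passage 23, and the treatment means from 12.53 with Activin to 12.65 in KSR. None of its treatment intervals reached beyond -0.31 or 0.23, so changes of 1.5-fold lay outside them.

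Zfp42 (Rex1), a zinc finger gene widely used as a naive marker, moved against Tbx3 from passage 23 to 24. Its level was 12.24 ± 0.17 at passage 23 and 12.63 ± 0.16 at passage 24 (SD, n = 4), an increase of 0.38 ± 0.10 (SE), 1.30-fold, with an adjusted p of 0.0370 (limma). The intensities in KSR, DMSO, Activin and SB were 5896, 4320, 5032 and 5249 at passage 23 and 7262, 6524, 6591 and 7798 at passage 24. At passages 20 and 21 they ran from 3811 to 6893. All 4 arrays of passage 24 were brighter than those of passage 23; the call held in 5 of 13 alternatives, and was lost without the DMSO, Activin or SB arrays (adjusted p 0.0884 to 0.220).

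Between passages 23 and 24, 5 of 10 members passed, against 2.85% of all probes: Zfp42 rose, and Tbx3, Nr5a2, Stat3 and Socs3 fell. When only the 10741 probes above background on 4 or more arrays were fitted, 1330 probes passed. Nr5a2 fell by 0.35 ± 0.08 (SE), 1.27-fold (adjusted p = 0.0216, limma), and its 4 levels at passage 24 lay under all 4 at passage 23. The Nr5a2 call held in 6 of 13 alternatives and was lost without any 1 of the treatments (adjusted p 0.0852 to 0.0984). Of 15 other naive state genes, 1 rose and 2 fell along the same step, and of 7 core pluripotency genes 1 rose and 0 fell. The gene that rose was Tdgf1, which is on both lists (0.52, adjusted p = 0.00574). Klf5 (-0.47, adjusted p = 0.00237) and Tfcp2l1 (-0.34, adjusted p = 0.0266) fell, as did the coactivator Ncoa3, a partner of Esrrb (-0.34, adjusted p = 0.0194). Otx2, a factor of the primed epiblast, rose by 0.49 (adjusted p = 0.00506), and Fgf5 and Fgf15 rose too, so that 3 of 10 measured post-implantation genes were higher and 0 lower, again against 2.85% of all probes. Acta2, an actin of smooth muscle and fibroblasts, fell by 0.81 (adjusted p = 2.67e-05); it was the 1 that fell of 5 fibroblast markers above background on 4 or more arrays, and the summed intensity of the 10 listed was 5349 to 6149 at passage 23 and 4508 to 5205 at passage 24. The part of such cells in these values was not tested.

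**Figure D4:**
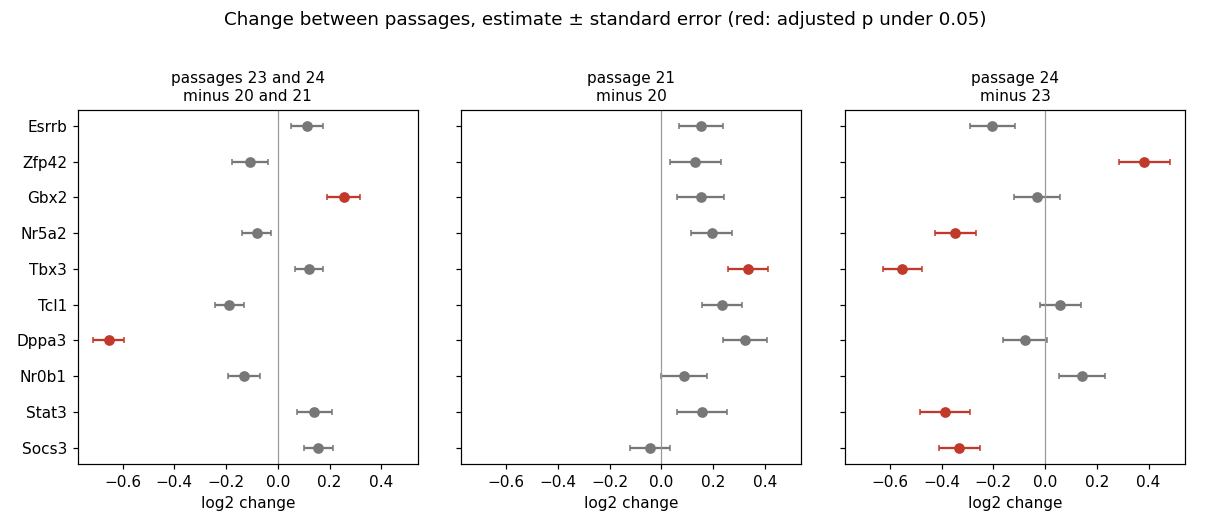
Log2 change (x axis) of each gene in 3 contrasts of passages, with treatment in the model; points are estimates, bars are 1 standard error, and red marks an adjusted p under 0.05. Dppa3 and Gbx2 passed between later and earlier passages, Tbx3 between passages 20 and 21, and 5 genes between passages 23 and 24.

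Stat3, the transducer of the LIF signal, was measured by 2 probes. At the brighter one, the intensities in KSR, DMSO, Activin and SB were 550, 457, 419 and 313 at passage 20 and 415, 422, 561 and 453 at passage 21. They were 683, 671, 640 and 630 at passage 23 and 477, 486, 596 and 485 at passage 24. The 4 arrays of passage 23 were above all other 12 at both probes. The level fell from passage 23 to 24 by 0.39 ± 0.10 (SE) at the first probe (adjusted p = 0.0327) and by 0.44 at the second (adjusted p = 0.00552, both limma). The call at the first probe held in 4 of 13 alternatives, was lost without any 1 of the treatments (adjusted p 0.0544 to 0.154), and kept its direction throughout.

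Socs3, the feedback inhibitor that Stat3 induces, had intensities in KSR, DMSO, Activin and SB of 197, 239, 168 and 162 at passage 20 and 131, 189, 218 and 168 at passage 21. They were 290, 327, 283 and 217 at passage 23 and 216, 227, 219 and 199 at passage 24. Within each treatment the array of passage 23 was the brightest of the 4, and the arrays of passages 23 and 24 overlapped. The level fell from passage 23 to 24 by 0.33 ± 0.08 (SE), 1.26-fold (adjusted p = 0.0266, limma), which held in 7 of 13 alternatives and was lost without any 1 of the treatments (adjusted p 0.0573 to 0.165). With SB it lay below DMSO at 4 of 4 passages, by 0.27 on average (95% interval -0.51 to -0.03, unadjusted p = 0.0278 and adjusted p = 0.761 by limma, 0.176 with the block). DMSO in turn lay above KSR at 4 of 4 passages, by 0.17 (95% interval -0.07 to 0.41, unadjusted p = 0.157 and 0.0447 with the block, adjusted p = 0.995 with the block, limma). The mean levels were 8.07 ± 0.07 with SB, 8.34 ± 0.24 with DMSO and 8.18 ± 0.22 in KSR (SD, n = 4).

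The rest of the LIF pathway gave no calls of its own. Of 20 listed receptor and signalling genes, 18 were measured and 12 were above background, and 0 passed in any comparison of treatments or passages. Of 16 other Stat3 target genes, 0 passed between treatments without the block, Tfcp2l1 and Pim3 (0.29, adjusted p = 0.0452) passed between Activin and SB with it, and 5 differed between passages (Tfcp2l1, Klf4, Klf5, Pramel7 and Egr1). Of these, Klf5 and Tfcp2l1 fell from passage 23 to 24, and Klf4 was higher at the later passages by 0.33 (adjusted p = 0.0119).

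Because Stat3 and Socs3 were both highest at passage 23, the promoters of the genes were read for the palindrome that STAT dimers bind. RefSeq promoters (GRCm38.p6, 250 bases before to 50 after a start site) were matched for 8 of 10 genes, as 10 sequences, and Tbx3 and Dppa3 had no entry. The motif TTCNNNGAA, which reads the same on both strands, was found in 2 of the 10, against 8.30% of 32851 promoters: in Socs3 (chr11:117969317-117969616, minus strand) 154 bases before the start, and in 1 of the pair of Esrrb starts (chr12:86360867-86361166, plus strand) 178 bases before it. They are shown because Socs3 is the classic target of Stat3 and Esrrb the other match; capitals mark the motif.
Socs3 promoter: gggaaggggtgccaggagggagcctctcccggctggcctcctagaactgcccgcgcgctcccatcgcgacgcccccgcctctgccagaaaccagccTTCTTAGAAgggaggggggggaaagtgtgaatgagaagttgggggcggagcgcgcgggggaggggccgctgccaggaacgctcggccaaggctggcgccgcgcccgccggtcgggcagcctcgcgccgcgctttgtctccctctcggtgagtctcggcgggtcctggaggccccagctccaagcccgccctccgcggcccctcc
Esrrb promoter: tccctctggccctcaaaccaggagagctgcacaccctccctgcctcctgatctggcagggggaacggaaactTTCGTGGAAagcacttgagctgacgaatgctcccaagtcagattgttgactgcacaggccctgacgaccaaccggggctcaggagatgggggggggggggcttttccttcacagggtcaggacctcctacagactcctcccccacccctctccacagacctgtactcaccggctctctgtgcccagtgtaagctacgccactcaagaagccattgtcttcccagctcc
The SMAD box CAGAC, on either strand, was found in 2 of the 10 sequences (Esrrb at that same start, and Tcl1), against 49.6% of all promoters. The nuclear receptor core site AGGTCA, on either strand, was in 2 (Nr5a2 and Nr0b1), against 16.3%. A match describes the letters in this window and was not measured as binding.

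The genes whose pattern over the 16 arrays was most like a member were found for the 3 members with the largest spread, as Pearson's r over 16 arrays among 7772 other genes above background, a description with no test since the arrays share passages. For Dppa3 (SD 0.38) they were Chka (0.916), Litaf (0.906) and Rhox9 (0.891). For Tbx3 (SD 0.27) they were Wsb2 (0.919), Sema4a (0.895) and Slc35c1 (0.827). For Stat3 (SD 0.22) they were Gpc1 (0.847), Slc35c1 (0.834) and Tbx3 itself (0.825). All of these nearest genes of Tbx3 and Stat3 had their highest passage mean at passage 23.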

How the data were processed

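Total RNA of 16 cultures was labelled and hybridised to Illumina MouseRef-8 arrays, and per the labels its integrity number was above 9. The authors deposited a table of non-normalised intensities, background-subtracted in BeadStudio (version not given in the sources used here), with 26.8% to 28.7% of values per array below 0; this table was analysed. The second table that the authors deposited holds intensities that they normalised by cross-correlation and raised to a floor of 40 (53.1% to 59.9% of values per array lie at it); it was used as an alternative. Neither holds bead counts, and the sources used here do not say which arrays shared a chip, so the number of arrays limits the precision.

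Groups and passages came from the labels. Intensities were corrected with normexp (saddle, offset 50), quantile normalised, put on the log2 scale and fitted with limma 3.58.1 in R 4.3.3 (lmFit, eBayes) over 24606 probes, with a term for each of 4 treatment groups. Two-sided p-values of each comparison received a Benjamini-Hochberg adjustment across all its probes. Passage was tested with treatment in the model, by an F test with 3 numerator degrees of freedom and by 3 contrasts. P-values of the fit without the block measure the spread between these cultures, which are of 1 line. Those of the block and of the passage tests measure the spread left within passages, and hold none from passage to passage. The replicate numbers of the labels are the passages and pair the cultures: deviations from group means correlated at 0.0976 to 0.325 within a passage (24 pairs) and -0.238 to 0.0995 across passages (72 pairs). All 10 genes were named with every probe; the genes nearest in pattern came from the 3 members with the largest spread. The members and gene lists were chosen with earlier results of these data known. Alternatives changed the correction, the normalisation, the filter, the moderation and the arrays used. For the 3 contrasts of passages, no alternative left out a passage. The fits were tested on simulated data with independent noise. The simulated treatment changes came without differences between passages, so the spread that passages add was not covered.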

Additional observations from a re-analysis of the deposited data

Results flagged for a closer look

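In 3 of 80 sets of 4 arrays (each gene within each treatment and within each passage) the highest or lowest array stood apart from the other 3 by Dixon's criterion, which chance meets in about 1 of 20 sets. Zfp42 was low in the DMSO culture of passage 23, at 12.06 (intensity 4320), where the other DMSO cultures lay between 12.55 and 12.58. Stat3 was high in that same culture, at 9.54 (intensity 671), against 9.04 to 9.09 in the other DMSO cultures. Passage differences were not taken out of the sets within a treatment. Over all treatments, passage 23 had the lowest mean of Zfp42 (12.24) and the highest mean of Stat3 (9.46). Gbx2 was high in the SB culture of passage 24, at 13.27 (intensity 10287), against 12.93 to 12.99 in the other cultures of that passage.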

How the results depend on the processing

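No gene of the 10 passed between Activin and DMSO, SB and DMSO, or DMSO and KSR in any of 22 alternatives; between Activin and SB it was 0 except with the replicate block, where it was 2. Of 1641 single-gene values, 1499 stayed on their side of the threshold with the direction of any call, 129 lost a call, 13 gained one and 0 reversed one. Without normalisation between arrays the median gene rose by 0.176 (log2) from the earlier to the later passages, and changes there are to be read against that shift. The cause of the moved counts was not tested, apart from those with fewer arrays or fewer probes. Counts below are of probes past the threshold, then, where a count of the 10 genes moved, of those genes.

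With a normexp offset of 16, Activin minus DMSO gave 2 probes (main 5), SB minus DMSO 46 (main 76), and Activin minus SB with the block 0 genes (main 2). Any passage difference gave 694 probes and 2 genes (main 1767 and 8), later minus earlier 518 and 1 (main 932 and 2), passage 21 minus 20 38 and 0 (main 217 and 1), and passage 24 minus 23 190 and 1 (main 702 and 5). With intensities under 16 set to 16, and in the same order, these were 1, 37, and for Activin minus SB 129 probes (main 221), then 1144 and 4, 1 gene, 108 and 0, and 406 and 3. Scaling to a common median gave 3, 47, 0 genes with the block, 4194 probes, 6767 and 4, 88 and 0, and 412 and 3. The authors' values gave 3, 38, 123, 0 genes with the block, 962 and 3, 557 and 1, 84 and 0, and 428 and 2. No normalisation gave 37 for SB minus DMSO, 131 for Activin minus SB, 1 gene with the block, 4066 probes, 4801 and 6, 111 and 0, and 302 and 1. Probes above background alone gave 2758 for any passage difference, 521 and 2 for passage 21 minus 20, and 1330 for passage 24 minus 23. Moderation with a trend gave 353 for passage 21 minus 20.

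The replicate block (passage) gave 9 probes for Activin minus DMSO, 150 for SB minus DMSO and 438 for Activin minus SB, and changed no other call among the 10 genes. With only the compared groups in the fit, SB minus DMSO gave 49 probes and Activin minus SB with the block 0 genes. The passage counts (any, later minus earlier, 21 minus 20, 24 minus 23) were 816 and 3, 385 and 1, 95 and 0, and 242 and 2 without the KSR arrays. They were 634 and 2, 384 and 1, 60 and 0, and 194 and 1 without DMSO, 775 and 2, 417 and 1, 55 and 0, and 254 and 1 without Activin, and 560 and 3, 389 and 1, 47 and 0, and 134 and 1 without SB.

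Leaving out replicates gave 0 to 5 probes for Activin minus DMSO (0 without replicate 1), 35 to 71 for SB minus DMSO (35 without replicate 1), 115 to 234 for Activin minus SB (115 without replicate 1), and 256 to 394 probes and 0 to 1 genes with the block. For any passage difference it gave 454 to 1755 probes and 2 to 7 genes (454 and 2 without replicate 4), and without KSR replicate 2 passage 21 minus 20 gave 227 probes and 0 genes.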
